A study of Mus musculus with 4 samples.

Results

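In one ChIP-seq replicate of the nuclear receptor NR6A1, 280 genomic regions were strong peaks and had no counterpart in the other replicate. They were chosen by 2 values: a peak score of 1000 or more in replicate 2, and no replicate 1 peak sharing even 1 bp with them. They are 280 of the 2264 replicate 2 peaks at that score and of the 16160 replicate 2 peaks in all. The score is the value given with each peak in the authors' list, and its unit is not stated. Higher scores are read here as stronger peaks, and 1000 is a limit set here. Because both values chose the regions, their scores and their lack of a replicate 1 peak are described here and not tested.

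Chromatin immunoprecipitation with sequencing (ChIP-seq) recovers the DNA that a protein is bound to and reads it, and a peak is a stretch where the recovered fragments pile up. The cells were an immortalized line of mouse mesenchymal stem cells, which are stromal cells able to form bone, cartilage and fat, of strain C57BL/6 and genotype Dicer f/f, called Dicer WT in the labels. Both libraries with a peak list came from cells in which a retrovirus, pMMP-puro-Flag-HA-NR6A1, drove NR6A1 carrying Flag and HA tags, under puromycin selection, and the tagged protein was recovered with an antibody to HA. The labels also describe 2 libraries from cells of the same line with the empty vector, recovered with the same antibody. No vector values were used here, and how much DNA the HA antibody recovers at the 280 regions without the tagged protein is therefore unknown. The line was monoclonal and the tagged receptor was supplied by the virus, so the peaks describe 1 clone with introduced NR6A1. Nothing in the labels says whether the replicates were separate cultures, and with 1 list for each replicate no difference between them has a replicate check.

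NR6A1, also called germ cell nuclear factor, is an orphan nuclear receptor: no ligand is established for it. It binds DNA as a dimer at direct repeats of the short motif common to many nuclear receptors, with no spacer between them, and it is known above all for silencing pluripotency and germ cell genes, among them Pou5f1, as the embryo differentiates. The series title places its gene under repression by let-7, a microRNA that is abundant in adult cells. The lists are on the mouse build mm9. No mm9 sequence or gene annotation was used here, so the regions are given by position and the genes and motifs in them were not analysed here.

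Of all 16160 replicate 2 peaks, 7118 or 44.0% had no replicate 1 peak, and of those scored 1000 or more the 280 regions were 12.4%. The rule used both the score and the lack of a partner, so these shares, and those by score that follow, only describe the selection. From 1000 to 1200 it was 18.3%, with 109 of 595 peaks (95% Wilson interval 15.4 to 21.6%, which covers counting error only). From 2000 to 3000 it was 5.43%, with 22 of 405 peaks (3.61 to 8.09%). At 3000 or more it was 3.96%, with 9 of 227 peaks (2.10 to 7.36%). The mirror set, replicate 1 peaks scored 1000 or more with no replicate 2 peak, held 1293 of 3424 peaks or 37.8%, and its share was 42.5% from 1000 to 1200 and 26.8% at 3000 or more. The replicate 1 list is the longer, with 21507 peaks, so a replicate 1 peak has fewer peaks in the other list to meet than a replicate 2 peak has. How far the lengths bear on the difference between the shares was not tested. Scores of the lists are not on a common scale, because each depends on the depth and background of its own library, and read depth is unknown.

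**Figure D1:**
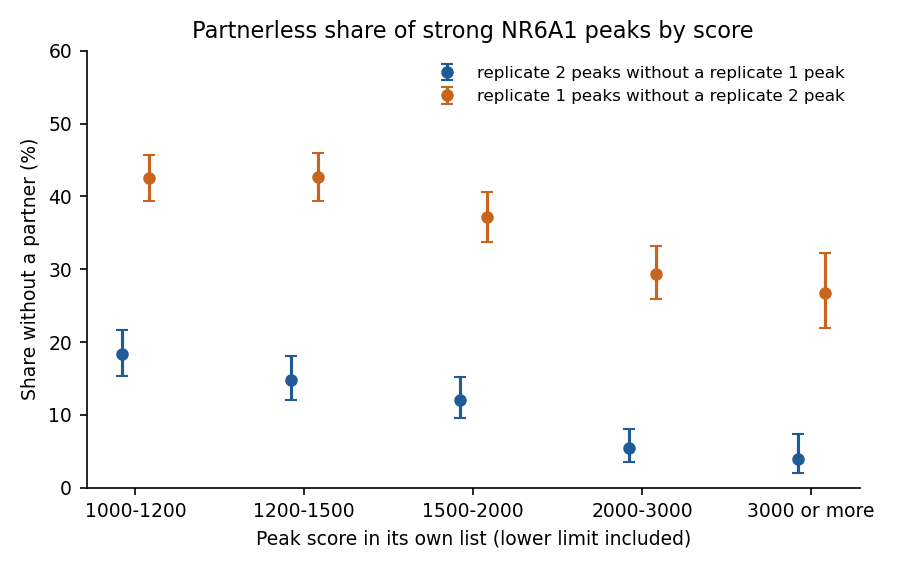
Share of strong NR6A1 peaks without a partner in the other replicate (vertical axis, percent) in 5 ranges of the score in the peak's own list (horizontal axis); points are shares and bars 95% Wilson intervals. The replicate 2 share falls from 18.3% to 3.96% and lies below the replicate 1 share in each range.

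The 280 regions lay mostly toward the lower end of the strong scores. Their scores ran from 1001.34 to 3166.84 with a median of 1281 (quartiles 1112 and 1615), against a median of 1533 for the 1984 strong replicate 2 peaks with a partner. In the replicate 2 list, whose median was 394, 161 of the 280 were in the highest decile of scores, at 1222.24 or more. The regions just inside the limit were on chromosome 4 at 55153912-55154581, on chromosome 9 at 85060647-85061338 and on chromosome 13 at 33197390-33198071, with scores of 1001.34, 1001.5 and 1001.75. The next were on chromosome 1 at 162450740-162451844 with 1007.21 and on chromosome 15 at 63986989-63987893 with 1009.62. Just outside it, also without a partner, were peaks on chromosome 15 at 25370687-25371877 with 999.48, on chromosome 8 at 113348626-113349319 with 997.52 and on chromosome 1 at 130295512-130296182 with 995.24, and 2 more on chromosomes 3 and 4 with 994.01 and 993.9. No gap in the scores separates the regions from the partnerless peaks below the limit.

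The strongest of the regions were found in quite different surroundings. The score of exactly 3100 is shared by 187 replicate 2 peaks and acts as a tie, so the order of peaks at or above it is not read as an order of strength. Of the 280 regions 3 were at exactly 3100 and 2 above it. The region on chromosome 15 at 103258598-103259580 scored 3166.84 and was 983 bp wide, and its nearest replicate 1 peak, with a score of 498.86, lay 63.8 kb away. It stood in a busy neighbourhood, with 35 replicate 1 peaks and 30 other replicate 2 peaks within 1000 kb. The region on chromosome 4 at 29459536-29460322 scored 3105.38 and was 787 bp wide. It was the farthest of the 280 from any replicate 1 peak, at 2269 kb, and a single other replicate 2 peak, with a score of 470.99, lay within 1000 kb. Among the 280, this pairs a score near the top of the list with the emptiest replicate 1 surroundings.

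The 3 regions at exactly 3100 differed in the same way. That on chromosome 1 at 70668155-70669314 had 1 replicate 1 peak and 11 other replicate 2 peaks within 1000 kb. Chromosome 10 had its region at 14964108-14965565, with 17 replicate 1 peaks and 12 other replicate 2 peaks there, the nearest replicate 1 peak being 54.3 kb away. On chromosome 13 the region at 13664569-13666345, the widest of the 5 with 1777 bp, had 8 and 11. Its 5 replicate 2 neighbours within 50 kb all lacked a replicate 1 partner too, so this small cluster was listed in replicate 2 alone. The neighbours scored from 287.93 to 583.44. Of all replicate 2 peaks under 1000, 50.8% had a partner.

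**Figure D2:**
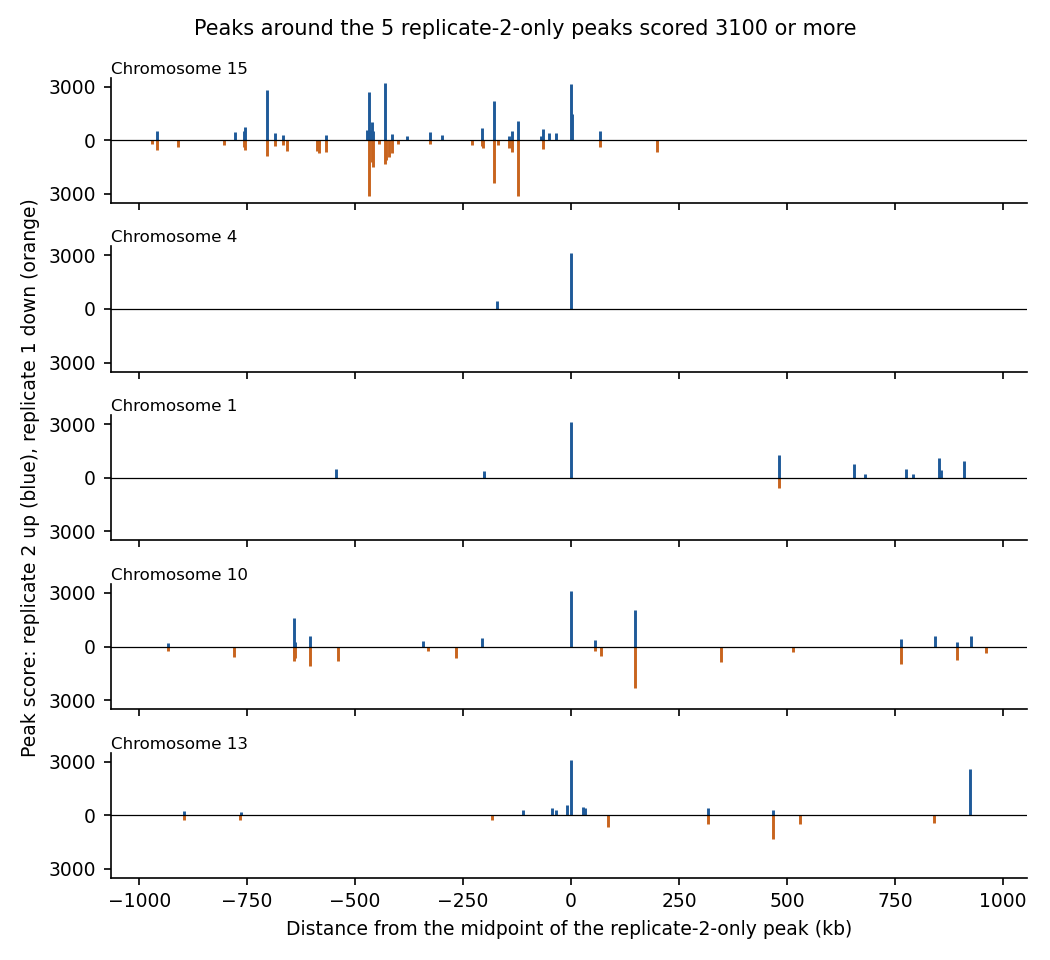
Peaks of both lists within 1000 kb on each side of the 5 replicate-2-only regions scored 3100 or more; the horizontal axis is the distance from the region's midpoint in kb, and bar height is the authors' peak score, upward for replicate 2 (blue) and downward for replicate 1 (orange). No orange bar stands opposite the central blue bar in any row, and the row for chromosome 4 holds no replicate 1 peak at all.

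Another 4 regions scored 3000 or more. A region on chromosome 1 at 83116257-83117096 scored 3091.16 and lay 280 kb from a replicate 1 peak. A second, on chromosome 15 at 80147392-80148794, scored 3087.48, with a replicate 1 peak of score 429.15 at 27.1 kb. Chromosome 17 held a region at 64542231-64543040 that scored 3038.77, with a replicate 1 peak at 92.3 kb. The last, on chromosome 4 at 108702422-108703370, scored 3026.43 and was the closest of the 9 to replicate 1 signal, at 7.49 kb from a peak of score 361.89. For all 9 of these strongest regions the nearest replicate 1 peak was thus 7.49 kb away or farther.

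The next 16 regions by score ran from 2989.45 down to 2163.05. On chromosome 15 they included 3855308-3856131 with 2989.45, 6514767-6515771 with 2755.91 and 36672325-36673048 with 2202.18. These lay 29.5, 8.42 and 8.48 kb from a replicate 1 peak. On chromosome 3 they were 138408221-138409121 with 2950.45 and 29778514-29779490 with 2373.65, at 18.6 and 211 kb. The closest of the 16 to replicate 1 was on chromosome 17 at 71541184-71541841, with a score of 2609.48 and 1.04 kb between it and a replicate 1 peak of score 236.42. A region on chromosome 4 at 32492046-32493448, with 2163.05, followed at 2.81 kb.

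Several of these 16 lay far from any replicate 1 peak. The region on chromosome 12 at 51068975-51069708 scored 2317.01 and was 1379 kb away. The region on chromosome 7 at 112009641-112010392 scored 2189.89 and was 916 kb away. The other 3 had distances of the same order: on chromosome 19 at 48853438-48854225 with 2187.42 and 859 kb, on chromosome 7 at 127103930-127105077 with 2481.93 and 759 kb, and on chromosome 10 at 124545563-124546720 with 2285.25 and 759 kb. None of these 5 had a replicate 1 peak within 500 kb, while each had 1 to 9 other replicate 2 peaks there. The remaining 4 were on chromosome 13 at 14588885-14589800 (2605.86), on chromosome 9 at 23498806-23499602 (2464.43) and 49624022-49625123 (2431.07) and on chromosome 2 at 167311018-167311731 (2316.62), with distances of 82.8, 78.2, 10.6 and 32.8 kb.

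Over all 280 regions the nearest replicate 1 peak lay a median of 29.4 kb away (quartiles 8.37 and 87.1 kb). The mirror set was much alike, with its nearest replicate 2 peak a median of 30.5 kb away (quartiles 10.1 and 79.1 kb). Few regions had a replicate 1 peak at their edge: 5 within 0.5 kb and 15, or 5.36%, within 1 kb (3.27 to 8.65%). In the mirror set 4.49% had a replicate 2 peak within 1 kb (3.49 to 5.76%). The closest approach was on chromosome 9 at 58295711-58296644, with a score of 1491.12, where 41 bp separated the region from a replicate 1 peak of score 336.27. In 11 of those 15 cases the near replicate 1 peak had a replicate 2 partner of its own, so replicate 2 showed a pair of neighbouring peaks where replicate 1 showed 1. At the other end 63 regions had no replicate 1 peak within 100 kb and 6 had none within 1000 kb. A peak of the other list lay within 100 kb of 77.5% of the regions (72.3 to 82.0%) and 79.2% of the mirror set (76.9 to 81.3%). The nearest replicate 1 peaks were of ordinary strength. Their median score was 435 (quartiles 285 and 733), beside 417 for the whole replicate 1 list, and 39 of the 280 or 13.9% scored 1000 or more, beside 15.9% of that list.

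**Figure D3:**
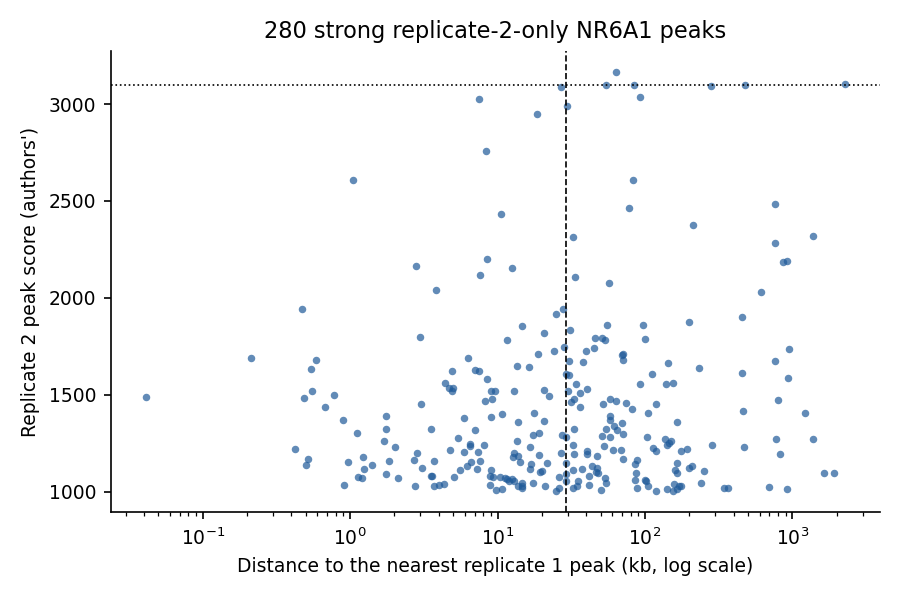
Replicate 2 peak score (vertical axis, the authors' score) of each of the 280 regions against its distance to the nearest replicate 1 peak (horizontal axis, kb on a log scale); the dashed line is the median distance of 29.4 kb and the dotted line the tied score of 3100. Scores above 2000 occur at distances from 1.04 kb to 2269 kb, and the greatest distance belongs to a region scored 3105.38.

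Replicate 1 peaks were sparser around the 280 regions than around strong replicate 2 peaks with a partner. For this comparison the partner itself was left out, so that only other replicate 1 peaks counted. A non-overlapping replicate 1 peak lay within 10 kb of 82 of the 280 regions or 29.3% (24.3 to 34.9%), against 50.9% of the 1984 strong peaks with a partner (48.7 to 53.1%). No replicate 1 midpoint lay within 50 kb of 106 regions or 37.9% (32.4 to 43.7%), against 14.7% with a partner (13.2 to 16.3%). Weighting the peaks with a partner to the scores of the 280 regions, in 5 score ranges, gave 51.8% and 14.1%. How far score bears on the difference between the sets was not tested. The mirror set had 12.5% with no other replicate 1 peak within 50 kb and 35.7% with no replicate 2 peak there. No test was made: peaks of 1 library are not replicates, neighbouring peaks share windows, and the rule itself asks for the absence of replicate 1 peaks.

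Replicate 2 peaks around the 280 regions were as frequent at short range as around strong peaks with a partner, within counting error, and less frequent at 50 kb. Another replicate 2 peak lay within 10 kb of 134 regions or 47.9% (42.1 to 53.7%), against 52.2% of strong peaks with a partner (50.0 to 54.4%) and 44.2% of all replicate 2 peaks. Within 50 kb it was 75% (69.6 to 79.7%) against 82.7% (81.0 to 84.3%). No other replicate 2 midpoint lay within 100 kb of 13.6% of the regions (10.0 to 18.1%), against 8.06% with a partner (6.95 to 9.35%). Within 500 kb the median was 11 other replicate 2 peaks and 12 replicate 1 peaks, against 12 and 17 around strong peaks with a partner. More replicate 2 than replicate 1 peaks lay in that window for 110 regions or 39.3% (33.7 to 45.1%), against 22.9% with a partner (21.1 to 24.8%). More replicate 1 peaks lay there for 142 regions or 50.7% (44.9 to 56.5%), against 69.9% with a partner (67.8 to 71.8%). The replicate 1 list has 21507 peaks and the replicate 2 list 16160, and how far these lengths bear on the counts around both sets was not tested.

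**Figure D4:**
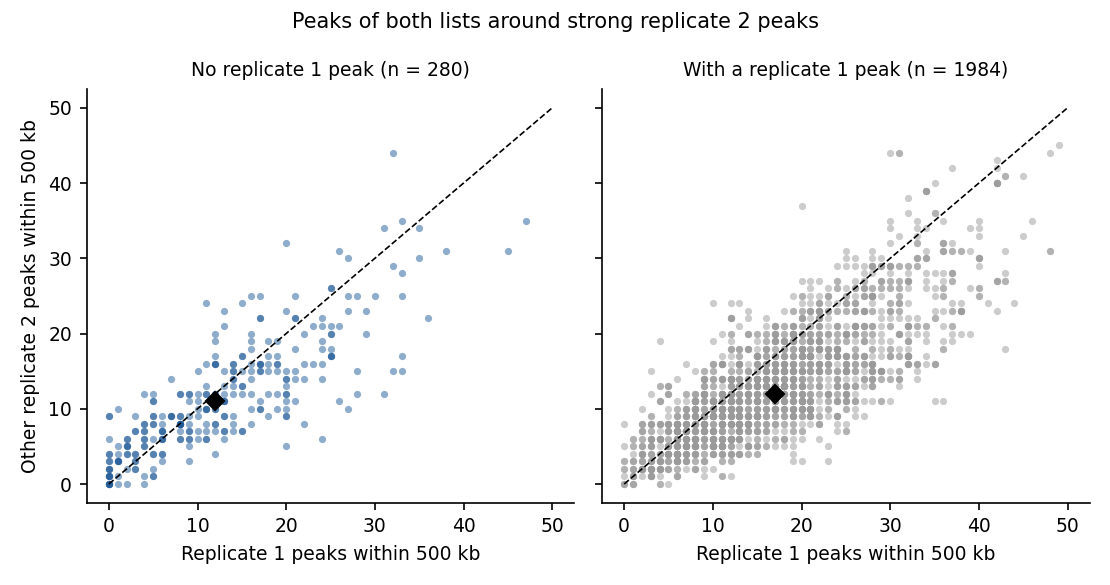
Number of replicate 1 peaks (horizontal axis) and of other replicate 2 peaks (vertical axis) with midpoints within 500 kb of each strong replicate 2 peak, without a replicate 1 peak (left, n = 280) and with one (right, n = 1984, its partner left out); the diamond marks both medians and the dashed line equal numbers. The diamond is at 12 and 11 on the left and at 17 and 12 on the right.

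Weaker replicate 2 peaks near the regions also had a replicate 1 partner at a lower share than those near other strong peaks. Neighbours scored 1000 or more have or lack a partner by the grouping itself, so only neighbours under 1000 were compared, a choice made after seeing the data. Within 50 kb of the 280 regions lay 440 such peaks, of which 159 or 36.1% had a partner (31.8 to 40.7%). Around strong peaks with a partner it was 53.2% of 3259 (51.5 to 54.9%), and 50.8% of all 13896 replicate 2 peaks under 1000. The nearest replicate 2 peak under 1000, at whatever distance, had a partner for 88 of the 280 regions or 31.4% (26.3 to 37.1%). For strong peaks with a partner it was 52.1% (49.9 to 54.3%). With neighbours of all scores, where the grouping fixes a part, the shares within 50 kb were 45.4% of 537 and 59.6% of 3944. The mirror set also had a low share among replicate 1 neighbours of all scores within 50 kb. Of 3219 such peaks, 36.0% had a replicate 2 partner (34.4 to 37.7%), beside 42.7% of all replicate 1 peaks. A low share was thus not particular to the regions. Scores of the neighbours were not matched between the sets. No test was made, for the reasons given above. The shares for replicate 1 neighbours were within counting error of each other, with 53.8% of 468 partnered around the regions (49.3 to 58.3%) and 53.9% of 4438 around strong peaks with a partner. Copy number and local background of the libraries were not tested as sources of these differences.

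Some regions lay in stretches where consecutive sites were found in replicate 2 alone. For this, peaks of either list that overlapped counted as 1 site, and sites were read along the chromosome. In that order 101 of the 280 regions or 36.1% stood alone between sites with a replicate 1 peak. Runs of 2 or more replicate-2-only sites held 179 or 63.9% (58.2 to 69.3%), beside 55.2% of all 7118 replicate-2-only sites (54.0 to 56.3%). Runs of 3 or more held 111 or 39.6% (34.1 to 45.5%), beside 28.8% of all 7118 (27.8 to 29.9%). Runs of 8 or more, 12 in all, held 8 of the regions or 2.86% (1.45 to 5.54%), beside 1.48% of all 7118 (1.22 to 1.78%). A run of 11 sites on chromosome 7 at 111681650-112607495 held 2 regions, with a highest score of 2189.89. A run of 10 sites on chromosome X at 16133976-16595387 held 1, scored 1231.88. A compact run of 5 sites on chromosome 4 at 57781376-57856269, within 74.9 kb, held 2, scored 1079.98 and 1477.81. The run of 7 sites around the chromosome 13 region at the tied score covered 145 kb. No limit was set on the distance between sites, so a run need not be a local cluster. Runs of 5 or more sites that held a region spanned from 61.0 kb to 9925 kb. A run of 8 sites on chromosome 10 that held 2 regions spanned 2430 kb.

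Among the 280 regions, 4 pairs lay within 10 kb of each other, and 49 neighbouring pairs within 1000 kb. The nearest other replicate 2 peak scored 1000 or more for 46 regions or 16.4% (12.5 to 21.2%). For strong peaks with a partner it was 16.5% (15.0 to 18.2%). Whether 4 pairs are many or few for a set of this size was not tested. The closest pair was on chromosome 12, at 51068975-51069708 and 51070318-51071037, with 609 bp between peaks scored 2317.01 and 1270.37. It also lay farther than 1000 kb from any replicate 1 peak, so 2 of the 6 regions at that distance are this pair. The second was on chromosome 5 at 111551117-111551910 and 111553526-111554211, with scores of 1464.42 and 1093.72. The third joined the region of score 3166.84 on chromosome 15 to one at 103261398-103262682 scored 1469.98, with 1.82 kb between them. The fourth was on chromosome 7 at 112006193-112006890 and 112009641-112010392, within the run of 11 sites. No peak of either list lay between the members of these 4 pairs.

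All 19 autosomes and chromosome X held at least 1 of the regions. Chromosomes 4, 3 and 6 held the most, with 31, 29 and 26, together 86 of the 280. As a share of the strong replicate 2 peaks of the chromosome, these were 17.5% of 177, 17.8% of 163 and 20.3% of 128 (14.3 to 28.1% for chromosome 6). The share was 23.3% on chromosome X, from 7 of 30 peaks (11.8 to 40.9%), and 19.6% on chromosome 12, from 10 of 51 (11.0 to 32.5%). It was lowest on chromosome 10, with 10 of 164 or 6.10% (3.35 to 10.9%), and on chromosome 19, with 5 of 79 or 6.33% (2.73 to 14.0%). The interval held the whole-list share of 12.4% on 16 of the 20 chromosomes, and the exceptions were chromosomes 3, 4 and 6 above it and chromosome 10 below it, with no adjustment for the 20 intervals. On every one of the 20 chromosomes the mirror share, of strong replicate 1 peaks without a replicate 2 peak, was the higher, from 32.5% on chromosome 15 to 45.8% on chromosome X, beside the greater length of the replicate 1 list (21507 against 16160 peaks). Among replicate 2 peaks of all scores, 62.0% on chromosome X had no replicate 1 peak, against 44.0% of the whole list. On chromosomes 3, 4 and 6 this all-score share was 44.4%, 46.9% and 44.6%. On chromosomes 12, 10 and 19 it was 47.8%, 40.7% and 41.1%.

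**Figure D5:**
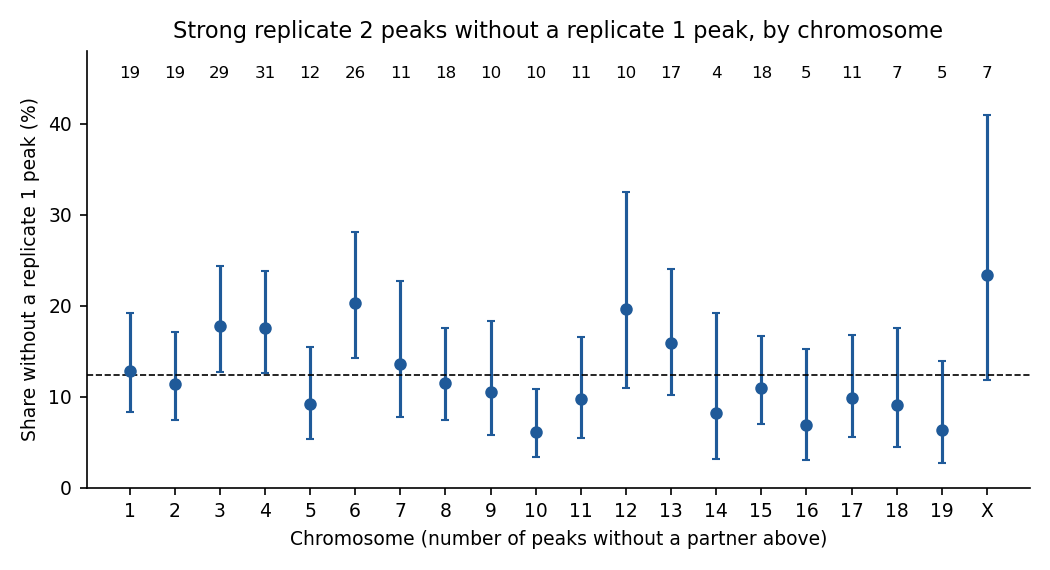
Share of strong replicate 2 peaks (score 1000 or more) without a replicate 1 peak on each chromosome (vertical axis, percent; bars are 95% Wilson intervals), with the number of such peaks printed above and the whole-list share of 12.4% as a dashed line. Chromosome 10 lies below the line and chromosomes 3, 4 and 6 above it by more than counting error.

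The regions were somewhat narrower than the strong peaks that both replicates shared. Their median width was 783.5 bp (quartiles 683 and 984), against 866 bp with a partner (738 and 1103) and 613 bp for all replicate 2 peaks. The mirror set had nearly the same median, 781 bp (679 and 948), so this width was not particular to the regions. At scores of 1000 to 1200 the medians of the regions and of peaks with a partner were 700 and 790.5 bp. From 1200 to 1500 they were 794 and 813.5 bp, and from 1500 to 2000 they were 808 and 825 bp. From 2000 to 3000 they were 946.5 and 941 bp, and at 3000 or more, with 9 regions, 983 and 1102 bp. The mean width was 893 bp, against 971 bp with a partner and 926 bp when those were weighted to the scores of the regions. How far the lower scores bear on the gap was not tested. A wider peak has more chance to touch a replicate 1 peak, so width is not independent of the rule.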

How the data were processed

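Each NR6A1 replicate had 1 peak list, so peaks were called per sample. The deposited score of each peak was used as the authors gave it, unscaled; its range fits the transformed p-value that MACS reports, which no header states. Per the submitters' processing notes, Bowtie 0.12.7, MACS and mm9 were involved, in roles not stated; the control library, the threshold and the MACS version are not given in the sources used here. Read depth is unknown, which limits precision, and a peak missing from a list cannot be told from one under its threshold.

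Positions are 1-based. Partners overlapped by at least 1 bp (Python 3.11.15, numpy 2.4.6, pandas 2.3.3, with the same counts from bedtools 2.31.1). Distances are the bases between peaks, and windows run from midpoint to midpoint. Shares carry 95% Wilson intervals (scipy 1.17.1). Partner code was tested on simulated lists. Regions, limits and comparisons were chosen with earlier results of these data known. Regions named are the 25 with the highest scores, those at the limit, the nearest and farthest from replicate 1 and pairs within 10 kb; runs and wide peaks were chosen after their values were seen. Gene lists, promoters and motifs were not run, because the gene and promoter tables at hand are on GRCm38, another build. Alternatives were other score limits, overlap rules and windows.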

Additional observations from a re-analysis of the deposited data

How the results depend on the processing

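Of 41 values under another setting, 19 stayed within counting error (or, for counts, within 1.5 times) and 22 moved. Counts of regions at other score limits or overlap rules, and shares with a neighbour in other windows, move by construction. The partnerless share, the distance and the width need not move with the score limit, nor the partnered share of neighbours with the window. With score limits of 750, 1500, 2000 and 3000 there were 597, 92, 31 and 9 regions, or 16.9%, 8.10%, 4.91% and 3.96% of the peaks at that limit, against 280 and 12.4%. A partner defined by 50% reciprocal overlap left 480 regions (21.2%), and one by midpoints within 100 bp left 731 (32.3%), whereas allowing 1 kb between edges left 265. The median distance to replicate 1 was 57.2 kb at a limit of 2000, and the median width 735, 890 and 977 bp at 750, 1500 and 2000. A replicate 2 neighbour lay within 5 kb of 37.5% and within 50 kb of 75%. In settings chosen after seeing the data, 51.5% of replicate 2 neighbours within 500 kb had a partner, as did 36.1% of those within 50 kb scored under 1000, against 45.4% of all within 50 kb, and 23.2% and 6.79% of regions had no replicate 1 peak within 100 and 500 kb. No paired analysis was possible because no list of the vector libraries was used, and leaving out a replicate leaves no regions to define. Promoter and motif alternatives were not run for want of mm9 genes and sequence.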

Other observations

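A few of the regions were very wide, at about the same share as among strong replicate 2 peaks with a partner. Of the 280, 4 were at least 2 kb wide (1.43%, Wilson interval 0.557 to 3.61%), beside 29 of 1984 strong replicate 2 peaks with a partner (1.46%) and 1 of 1293 strong replicate 1 peaks without a replicate 2 peak. The widest, 5041 bp, was on chromosome 10 at 126730725-126735765 with a score of 1229.88. It lay 143 bp from another wide replicate 2 peak at 126725337-126730581, which scored 1858.73 and did have a replicate 1 partner. The next were on chromosome 9 at 34783080-34786924, 3845 bp wide with a score of 1623.39, on chromosome 2 at 34632031-34634943, 2913 bp wide with 1203.33, and on chromosome 4 at 58900422-58902468, 2047 bp wide with 1630.15. The nearest replicate 1 peaks were 2.03, 4.94, 5.94 and 7.08 kb from these 4 regions.

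Other regions stood far from the peaks of replicate 1 or of both lists. No other peak midpoint of either replicate lay within 50 kb of 55 regions or 19.6% (15.4 to 24.7%), against 9.22% of strong replicate 2 peaks with a partner (8.03 to 10.6%). Within 500 kb there was none for 5 regions or 1.79% (0.765 to 4.11%), against 0.151% with a partner (0.0514 to 0.444%). On chromosome 14 at 90010192-90010997, with a score of 1406.25, the nearest other replicate 2 peak was 2470 kb away and the nearest replicate 1 peak 1215 kb. On chromosome 4 at 77881077-77882240, with a score of 1099.1, these distances were 1758 and 1645 kb. On chromosome 1 at 101997447-101998135, with a score of 1094.09, the nearest replicate 1 peak was 1911 kb away, while a second replicate 2 peak lay 2.75 kb from it.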
